A study of Mus musculus with 6 samples.

Results

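A set of 10 growth and patterning genes of the stroma was followed through 6 RNA-seq libraries of cultured fetal mouse thymus. They were the FGF ligands *Fgf7* and *Fgf10* with their receptor *Fgfr2*, the BMP ligands *Bmp2* and *Bmp4*, the Wnt ligands *Wnt4* and *Wnt5a* with the Wnt inhibitor *Kremen1*, and the IGF ligands *Igf1* and *Igf2*. A gene was included when its symbol in the expression table was one of these names, whatever its values were. All 10 of the 10 names were found among 22513 genes, and all 10 passed the filter on low values (a mean of 0.1 FPKM or more), which left 15894 genes for testing. FPKM, the unit of that table, counts sequenced fragments relative to the length of a gene's exons and to the fragments mapped in the library. It is corrected for gene length, so levels of different genes can be set side by side. The thymic lobes came from WT or *Jmjd6*-/- embryos on a C57BL/6 background. They were treated for 4 days with 2-deoxyguanosine (2-DG) to remove haematopoietic cells and keep the stroma, and were stimulated with RANKL for 4 days or left unstimulated. *Jmjd6* encodes a nuclear dioxygenase that hydroxylates lysines of splicing factors, and the *Jmjd6*-/- embryos, from crosses of heterozygous mice, lacked it in every cell type. Each genotype gave 1 unstimulated and 2 RANKL libraries. The stroma was not sorted, so each library is a mixture of epithelial, mesenchymal and vascular cells. The design text speaks of technical duplicates while the methods speak of samples, so the spread between replicates, and each p-value built on it, may be technical only.

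FGF7 and FGF10 are made mainly by mesenchyme and bind the epithelial splice form of FGFR2, and this signal drives growth of the fetal thymic epithelium. BMP4 and Wnt ligands act on the same epithelium and are known as regulators of the transcription factor *Foxn1*, on which its differentiation depends, while noggin and chordin-like proteins bind BMPs, and Kremen proteins remove the Wnt co-receptor LRP6 together with Dickkopf proteins. IGF1 and IGF2 signal through the receptor encoded by *Igf1r* and are held in the extracellular space by IGF-binding proteins. RANKL is the TNF family ligand that drives maturation of medullary thymic epithelial cells (mTECs) and induces *Aire*.

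The labels were checked on 2 genes. *Jmjd6* lay between 25.9 and 32.5 FPKM in the 3 WT libraries and between 1.32 and 1.96 FPKM in the 3 *Jmjd6*-/- libraries. *Aire* was at 0.142 and 0.473 FPKM in the unstimulated libraries and between 67.1 and 79.7 FPKM in the 4 RANKL libraries, although one field of the labels, on treatment, names RANKL for all 6. The WT RANKL replicates were less alike than the *Jmjd6*-/- pair, with Pearson's r of 0.973 against 0.996 over 12587 genes and a median absolute log2 difference of 0.28 against 0.08. Depth was estimated from the spacing of the lowest values and was about 16000000 to 29000000 fragments per library. Epithelial markers were abundant in every library, with a sum over 8 genes of 5710 to 8450 FPKM, and of 7 haematopoietic markers *Cd3e* was at 0 in 5 of 6 libraries while *Ptprc*, *Cd4*, *Rag1*, *Itgam* and *Csf1r* were above 0 in all 6. The sum of the 8 epithelial markers was lowest in WT RANKL replicate 1, at 5710 FPKM, against 8050 FPKM in WT RANKL replicate 2. The keratins *Krt5* (1010 against 1470 FPKM), *Krt8* (1820 against 2480) and *Krt18* (2340 against 3570) make up most of this sum. *Krt14* and *Foxn1* were also lower in replicate 1. *Epcam* (209 against 202 FPKM), *Cdh1* (136 against 128) and *Trp63* (108 against 68.6) were higher there.

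*Fgf10* and *Igf2* were the members that were lower in all 3 *Jmjd6*-/- libraries than in all 3 WT libraries, as were 9.14% of all genes tested. The 250 bases before the annotated starts of *Fgf10* and *Igf2* are therefore shown, taken from RefSeq on GRCm38.p6, which has the coordinates of mm10. *Igf2* has 4 annotated starts, of which the outermost and the innermost are printed, and both genes are read 5′ to 3′ on their own strand. Capitals mark matches to 3 motifs searched on both strands, namely NF-kB (GGGA and CC with any 4 bases between them), TCF/LEF (CTTTGA) and the GC box (GGGCGG).
Fgf10, plus strand, chr13:118714449-118714698: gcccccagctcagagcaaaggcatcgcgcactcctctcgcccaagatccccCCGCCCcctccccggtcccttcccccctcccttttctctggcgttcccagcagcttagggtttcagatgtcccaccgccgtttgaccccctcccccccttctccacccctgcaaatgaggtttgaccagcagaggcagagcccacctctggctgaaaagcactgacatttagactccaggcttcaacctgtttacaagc
Igf2 outermost start, minus strand, chr7:142666817-142667066: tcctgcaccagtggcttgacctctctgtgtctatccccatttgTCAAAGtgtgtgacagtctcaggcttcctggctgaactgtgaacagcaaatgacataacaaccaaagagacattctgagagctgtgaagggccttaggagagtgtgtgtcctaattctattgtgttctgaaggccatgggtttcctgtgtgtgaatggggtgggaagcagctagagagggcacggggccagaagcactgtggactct
Igf2 innermost start, minus strand, chr7:142657497-142657746: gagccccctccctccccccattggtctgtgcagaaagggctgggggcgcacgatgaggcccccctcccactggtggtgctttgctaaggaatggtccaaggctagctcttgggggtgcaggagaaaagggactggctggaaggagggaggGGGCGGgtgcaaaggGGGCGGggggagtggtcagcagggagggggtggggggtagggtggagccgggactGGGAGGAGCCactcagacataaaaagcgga
The *Fgf10* window held a GC box on the opposite strand, 199 to 194 bases before the start. The outermost *Igf2* window held a TCF/LEF match on the opposite strand, 207 to 202 bases before its start. The innermost one held an NF-kB match 30 to 21 bases and GC boxes 100 to 95 and 85 to 80 bases before its start. Of 32851 RefSeq windows of this length, 17.6% held the NF-kB letters, 13.8% the TCF/LEF letters and 32.7% the GC box. Among the 7 members with an entry, *Igf1* also had an NF-kB match, 96 to 87 bases before its RefSeq start, and a TCF/LEF match 186 to 181 bases before it. That window (chr10:87860861-87861110) lies inside the listed *Igf1* locus, which begins at 87859056. In the GENCODE annotation, all 250 bases of the *Igf1* window and 146 bases of the *Wnt4* window are untranslated exon sequence. *Bmp4* and *Wnt4* had GC boxes, 8 of them in *Wnt4*, and *Fgf7* and *Fgfr2* held none of the 3 motifs. *Bmp2*, *Wnt5a* and *Kremen1* had no entry. These matches describe letters in a window and are not evidence of binding.

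In FPKM, the receptor *Fgfr2* and the ligands *Wnt4*, *Igf2* and the inhibitor *Kremen1* were the members expressed at the highest levels. *Fgfr2* ranged from 51.4 to 68.8 FPKM over the 6 libraries and *Wnt4* from 35.8 to 53.1 FPKM, so that their ranges overlapped. *Igf2* followed at 15.9 to 36.1 FPKM and *Kremen1* at 20.4 to 24.2 FPKM. *Igf1* lay between 4.61 and 13.9 FPKM, *Fgf10* between 2.62 and 10.8 FPKM, and *Bmp2* between 0.33 and 9.98 FPKM. These 3 ranges overlapped with each other. The lowest members were *Wnt5a* at 1.66 to 3.23 FPKM, *Bmp4* at 1.27 to 2.23 FPKM and *Fgf7* at 0.341 to 1.49 FPKM. At the estimated depth, the values of *Fgf7* rest on 17 to 104 fragments per library and those of *Bmp4* on 51 to 124, so counting error alone is appreciable for both.

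**Figure D1:**
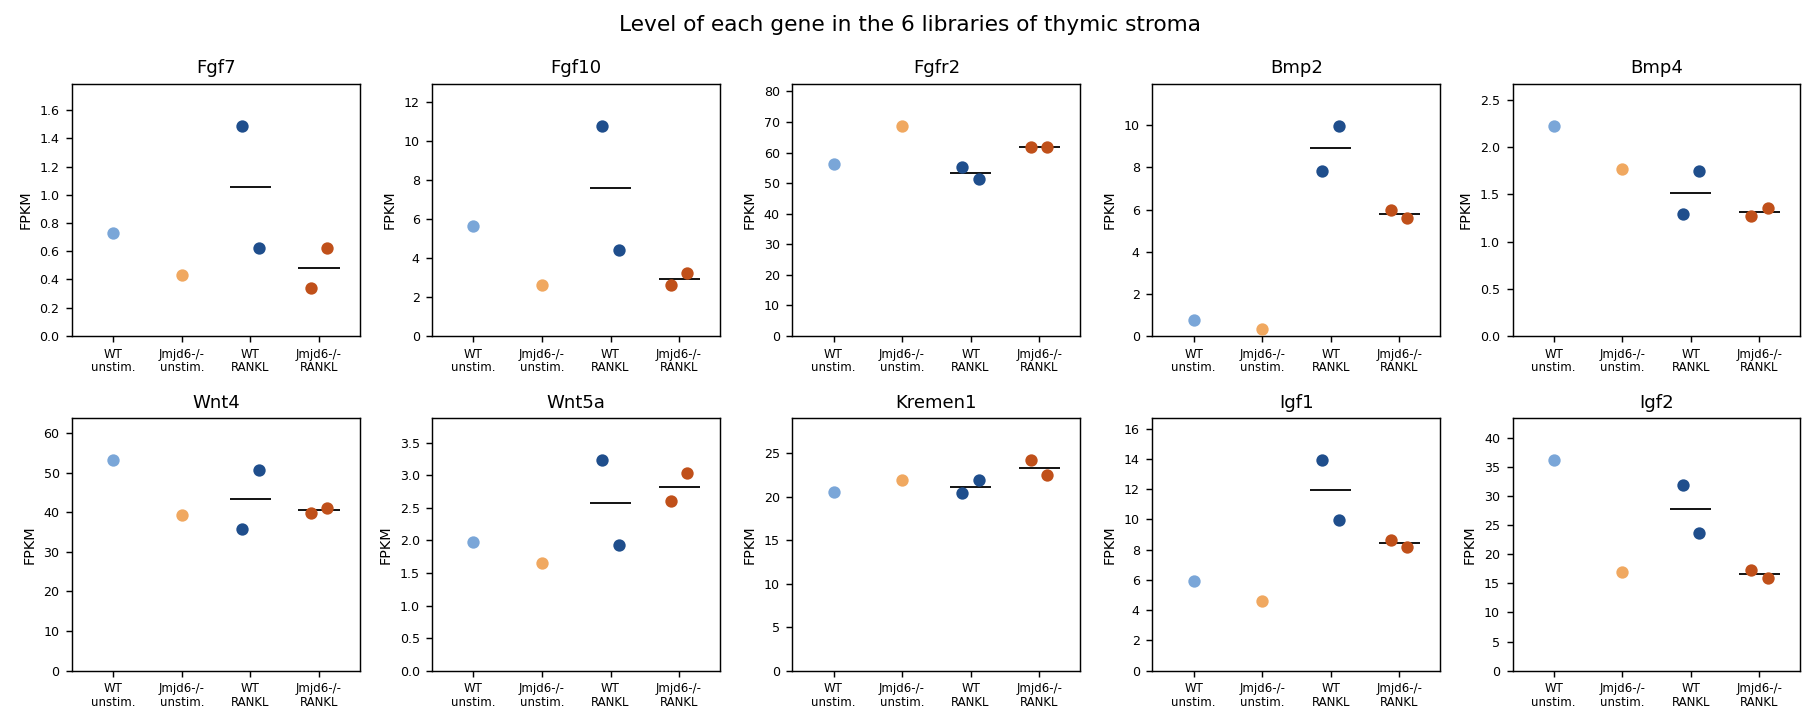
Level of each of the 10 genes in FPKM on a linear axis from 0, with 1 point per library and a horizontal line at the mean of each pair of RANKL libraries. *Bmp2* is under 1 FPKM in both unstimulated libraries and at 5.61 to 9.98 FPKM in the 4 RANKL libraries. *Fgf10* and *Igf2* are lower in all 3 *Jmjd6*-/- libraries than in all 3 WT libraries, as are 9.14% of all genes tested.

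The first comparison asked how the stroma responds to RANKL, over both genotypes. Of the 10 members, 2 rose, *Bmp2* and *Igf1*, and none fell past the threshold of an adjusted p of 0.05. Among all genes tested, 14.7% passed this threshold, 10.5% as higher and 4.11% as lower with RANKL, so 2 of 10 is near the share in the table as a whole. At an unadjusted p under 0.05, 3 members were counted, *Bmp4* being the third, against 29.7% of all genes tested. The median log2 difference was 0.14 over the members and -0.02 over all genes tested. The same 2 members lay above both unstimulated libraries in all 4 RANKL libraries, as did 18.9% of all genes tested, and *Bmp4* lay below, as did 18.5%. A 2-sided exact rank test of 4 against 2 libraries cannot reach a p under 0.133 for a single gene. The calls thus rest on the spread that limma shares across genes. All 4 medullary epithelial markers rose with RANKL too, and their sum went from 14.4 and 13.4 FPKM to between 125 and 148 FPKM. Of 8 mesenchyme markers 1 rose (*Dcn*, by 1.01 on the log2 scale) and none fell, with a list median of -0.06, and 3 of 5 endothelial markers fell. Of 4 cortical epithelial markers 2 fell (*Prss16* and *Ly75*, list median -0.51), and 1 of 8 epithelial markers rose. Among 4 tested haematopoietic markers, *Ptprc* fell by 1.00 and *Csf1r* by 0.62. *Itgam* (0.65) and *Cd4* (0.16) differed in the other direction and did not pass. The part of these markers in the values of the members was not tested. In a bulk library, fewer cells of a type and less RNA per cell cannot be told apart.

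*Bmp2* (XLOC_010891, mm10, chr2:133553199-133562885, plus strand) encodes a secreted BMP ligand. It was at 0.761 FPKM in unstimulated WT and 7.83 and 9.98 FPKM in WT with RANKL. In *Jmjd6*-/- stroma it was at 0.33 FPKM without and 5.96 and 5.61 FPKM with RANKL. All 4 RANKL libraries were thus above both unstimulated ones, by 11.7-fold in WT and 17.5-fold in *Jmjd6*-/- stroma as ratios of means. The RANKL effect was 3.58 ± 0.18 (SE) on the log2(FPKM + 0.1) scale, with a 95% interval from 3.15 to 4.00 and an adjusted p of 7.30e-05 by limma with Benjamini-Hochberg adjustment. The unstimulated levels rest on about 75 fragments in WT and 18 in *Jmjd6*-/- stroma, so the larger ratio in *Jmjd6*-/- stroma has a small base. The difference between the genotypes in this response was 0.40 ± 0.35 (SE) and did not pass the test (adjusted p = 1, limma). *Bmp2* passed for the RANKL effect under each of the 16 alternatives run.

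*Bmp4* (XLOC_006075, chr14:46379524-46390599, minus strand), the BMP ligand of the mesenchyme around the thymic rudiment, had values in the opposite order. It was at 2.23 FPKM in unstimulated WT, 1.29 and 1.75 FPKM in WT with RANKL, 1.77 FPKM in unstimulated *Jmjd6*-/- stroma, and 1.27 and 1.36 FPKM there with RANKL. The 4 RANKL libraries lay below both unstimulated ones, but the highest of them, at 1.75 FPKM, was close to the lower unstimulated value of 1.77 FPKM. The difference of -0.47 ± 0.19 (SE) did not pass, with an adjusted p of 0.163 by limma with Benjamini-Hochberg adjustment.

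*Igf1* (XLOC_001603, chr10:87859056-87937047, plus strand), the growth factor ligand of the type 1 IGF receptor, was at 5.94 FPKM in unstimulated WT and 13.9 and 9.99 FPKM in WT with RANKL. In *Jmjd6*-/- stroma the values were 4.61 FPKM without and 8.65 and 8.2 FPKM with RANKL. The groups did not overlap, and the ratio of means was 2.01 in WT and 1.83 in *Jmjd6*-/- stroma. The RANKL effect was 0.92 ± 0.15 (SE) on the log2 scale, with a 95% interval from 0.55 to 1.28 and an adjusted p of 0.01 by limma with Benjamini-Hochberg adjustment. This call depended on both unstimulated libraries. Without the WT one the difference was 0.86 with an adjusted p of 0.157 (4.26% of all genes passed), and without the *Jmjd6*-/- one it was 0.98 with an adjusted p of 0.0803 (6.8% passed, limma). The call was also lost without the filter on low values (adjusted p = 0.0745, 4.83% of genes passed) and without genotype as a term (adjusted p = 0.0651, 7.02% passed), with the difference at 0.92 in both (limma).

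The other 7 members did not pass for RANKL. *Wnt5a*, a ligand of the non-canonical Wnt pathway, differed by 0.53 ± 0.24 (SE, log2), with values of 1.97 and 1.66 FPKM without RANKL and from 1.93 to 3.23 FPKM with it, so the groups overlapped. Its adjusted p was 0.198, and 0.0189 without WT RANKL replicate 2 (limma with Benjamini-Hochberg adjustment). *Kremen1* moved least, by 0.06 with a 95% interval from -0.15 to 0.27. The intervals of *Fgfr2* (-0.30 to 0.07), *Wnt4* (-0.51 to 0.24) and *Igf2* (-0.57 to 0.14) lay within 1 log2 unit of 0. Those of *Fgf7* (-0.69 to 1.15) and *Fgf10* (-0.58 to 1.01) are wider, and for both genes WT RANKL replicate 1 was far above replicate 2.

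**Figure D2:**
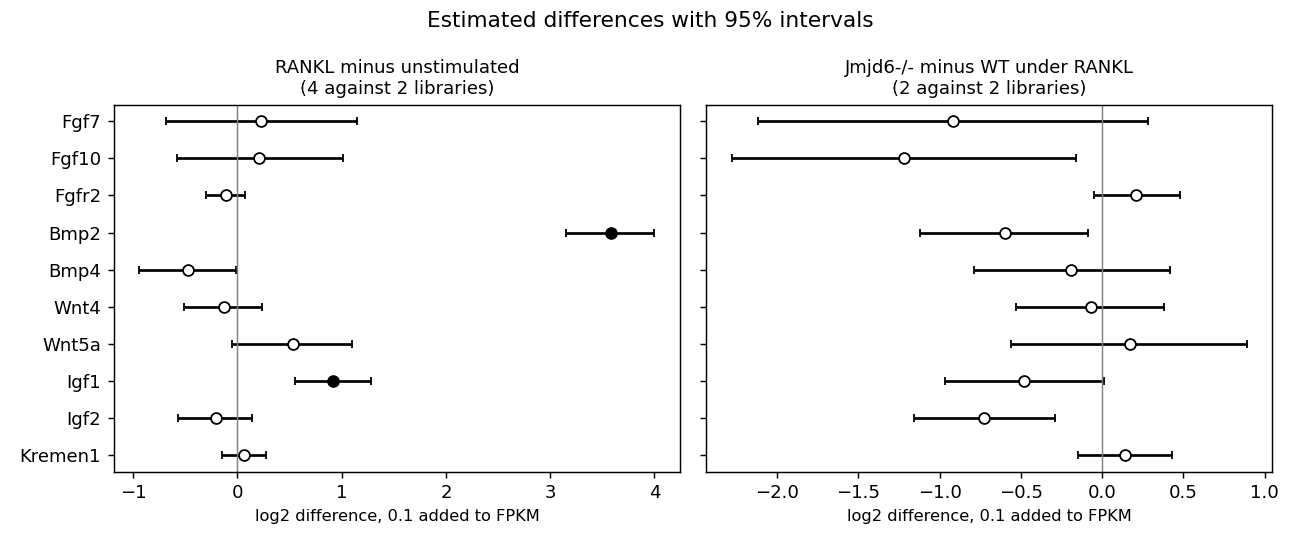
Estimated log2 difference of each gene with its 95% interval from limma, for RANKL against unstimulated (left, 4 against 2 libraries) and for *Jmjd6*-/- against WT under RANKL (right, 2 against 2 libraries), with 0.1 added to FPKM. Filled circles mark an adjusted p under 0.05, which *Bmp2* (3.58) and *Igf1* (0.92) reached on the left and no gene on the right.

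The second comparison set *Jmjd6*-/- against WT stroma under RANKL, with 2 libraries each. None of the 10 members passed an adjusted p of 0.05 by limma, while 2.34% of all genes tested did, 0.516% as higher and 1.82% as lower in *Jmjd6*-/- stroma. At an unadjusted p under 0.05, 3 members were counted, *Igf2*, *Bmp2* and *Fgf10*, against 18.8% of all genes tested. *Fgf10*, *Bmp2*, *Igf1* and *Igf2* were lower in both *Jmjd6*-/- libraries than in both WT libraries, as were 26.2% of all genes tested. *Fgfr2* and *Kremen1* were higher in both, as were 24.5%, and the other 4 members overlapped. The median log2 difference was -0.33 over the members and 0.01 over all genes tested. An exact permutation of 2 against 2 libraries cannot give a p under 0.333. The absence of calls depended on WT RANKL replicate 1. Without it *Fgfr2*, *Bmp2*, *Wnt4* and *Igf2* passed with differences of 0.27, -0.78, -0.33 and -0.51 (adjusted p from 0.0378 to 0.042, limma), but so did 25.1% of all genes tested, in a fit where the lone WT library is assumed to vary like the *Jmjd6*-/- pair.

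*Igf2* (XLOC_019098, chr7:142650768-142670356, minus strand) is an imprinted growth factor of fetal tissues. It was at 36.1 FPKM in unstimulated WT and 31.9 and 23.6 FPKM in WT with RANKL. In *Jmjd6*-/- stroma it was at 17 FPKM without and 17.3 and 15.9 FPKM with RANKL. The lowest WT library was thus above the highest *Jmjd6*-/- library, an order that 9.14% of all genes tested had in this direction. Under RANKL the means were 27.8 ± 5.87 FPKM in WT and 16.6 ± 1.04 FPKM in *Jmjd6*-/- stroma (SD, n = 2), a ratio of 0.597, and in the unstimulated libraries the ratio was 0.471. The difference under RANKL was -0.73 ± 0.17 (SE, log2), with a 95% interval from -1.16 to -0.29 and an adjusted p of 0.101 by limma with Benjamini-Hochberg adjustment. It passed when all 6 libraries were used with stimulation as a term, at -0.84 with an adjusted p of 0.0234 (limma), a setting in which 5.44% of all genes passed. It also passed without either WT RANKL library. The difference was then -0.51 (adjusted p = 0.0392) without replicate 1, where 25.1% of all genes passed, and -0.94 (adjusted p = 0.0496) without replicate 2, where 2.25% passed (limma). The locus also holds *Igf2as* on the other strand, listed at 0.068 to 0.216 FPKM. The library kit as described does not mark the strand, so fragments of the pair cannot be told apart.

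*Fgf10* (XLOC_005071, chr13:118714699-118792573, plus strand), the mesenchymal ligand of FGFR2, was at 5.63 FPKM in unstimulated WT and 10.8 and 4.41 FPKM in WT with RANKL. In *Jmjd6*-/- stroma it was at 2.64 FPKM without and 2.62 and 3.22 FPKM with RANKL. All 3 *Jmjd6*-/- values were below all 3 WT values, as for 9.14% of all genes tested. The WT RANKL replicates differed from each other by 2.44-fold. The means under RANKL were 7.60 ± 4.50 and 2.92 ± 0.423 FPKM (SD, n = 2), a ratio of 0.385, and the unstimulated ratio was 0.469. The difference of -1.22 ± 0.42 (SE, log2; 95% interval -2.28 to -0.16) had an adjusted p of 0.212 by limma with Benjamini-Hochberg adjustment. WT RANKL replicate 1 set its size. Without that library it was -0.59 (adjusted p = 0.0975), and without WT RANKL replicate 2 it was -1.85 (adjusted p = 0.0517, limma).

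*Fgf7* (XLOC_010832, chr2:125859218-126152004), the other mesenchymal ligand of FGFR2, was at 0.728 FPKM in unstimulated WT, 1.49 and 0.62 FPKM in WT with RANKL, 0.432 FPKM in unstimulated *Jmjd6*-/- stroma, and 0.341 and 0.625 FPKM there with RANKL. The groups overlapped under RANKL, since one *Jmjd6*-/- library lay just above WT RANKL replicate 2. The difference was -0.92 ± 0.48 (SE, log2) with a 95% interval from -2.12 to 0.28. Like *Fgf10*, it was 2.40-fold higher in WT RANKL replicate 1 than in replicate 2. The interval given for this gene in the table also spans *Galk2*, a kinase gene at 15.8 to 19.4 FPKM, and *Fam227b*, at no more than 0.0176 FPKM, and how fragments were divided among these genes was not tested. *Fgfr2* (XLOC_019007, chr7:130162451-130266808, minus strand), the receptor of both ligands, was at 56.2 FPKM in unstimulated WT and 55.4 and 51.4 FPKM in WT with RANKL, against 68.8 FPKM and then 61.9 FPKM in both RANKL libraries of *Jmjd6*-/- stroma. All 3 *Jmjd6*-/- values were above all 3 WT values, as for 9.14% of all genes tested in this direction. The difference under RANKL was 0.21 (95% interval -0.05 to 0.48), a ratio of 1.16, and did not pass with an adjusted p of 0.361 (limma with Benjamini-Hochberg adjustment). FPKM per gene does not separate the epithelial from the mesenchymal splice form of this receptor.

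*Bmp2* was above its unstimulated level in both genotypes, and under RANKL its mean in *Jmjd6*-/- stroma was 5.79 ± 0.244 FPKM against 8.91 ± 1.52 FPKM in WT (SD, n = 2). The ratio was 0.65 under RANKL and 0.434 in the unstimulated libraries. The difference under RANKL was -0.60 ± 0.20 (SE, log2; 95% interval -1.12 to -0.09) with an adjusted p of 0.201 by limma with Benjamini-Hochberg adjustment. *Igf1* had means of 11.9 ± 2.75 FPKM in WT and 8.43 ± 0.314 FPKM in *Jmjd6*-/- stroma (SD, n = 2). Its difference was -0.48 (95% interval -0.97 to 0.01) with an adjusted p of 0.279 (limma). For *Bmp4* the means were 1.52 ± 0.327 and 1.31 ± 0.0664 FPKM (SD, n = 2), and the replicates of the genotypes overlapped.

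Among the Wnt members, *Wnt4* (XLOC_013724, chr4:137277635-137299501, plus strand), a ligand made by thymic epithelium, was at 53.1 FPKM in unstimulated WT and 35.8 and 50.8 FPKM in WT with RANKL. In *Jmjd6*-/- stroma it was at 39.2 FPKM without and 39.8 and 41.2 FPKM with RANKL. The *Jmjd6*-/- values lay close together between the values of the WT RANKL replicates, and the difference under RANKL was -0.07 (95% interval -0.53 to 0.38). *Wnt5a* (XLOC_005618, chr14:28505473-28525515, plus strand) had means of 2.58 ± 0.914 FPKM in WT and 2.82 ± 0.297 FPKM in *Jmjd6*-/- stroma (SD, n = 2) and overlapped between the genotypes. *Kremen1* (XLOC_003140, chr11:5191553-5261610, minus strand) was at 20.6, 20.4 and 21.9 FPKM in the WT libraries and at 22, 24.2 and 22.5 FPKM in the *Jmjd6*-/- libraries, with the unstimulated value first. All 3 *Jmjd6*-/- values were above all 3 WT values, as for 9.14% of all genes tested, yet by little. The difference under RANKL was 0.14 (95% interval -0.15 to 0.43), with an adjusted p of 0.603 by limma with Benjamini-Hochberg adjustment.

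The third comparison asked whether the response to RANKL differed between the genotypes. No member and no gene among all tested passed an adjusted p of 0.05 by limma (0% of 15894 genes). At an unadjusted p under 0.05 there were 0 members and 4.18% of all genes tested. No other tool was run. The intervals were wide, since each unstimulated group had 1 library. For *Fgf10*, for example, the 95% interval of the difference in response ran from -2.00 to 1.69 log2 units, and for *Bmp2* from -0.49 to 1.28. The narrowest intervals were those of *Fgfr2* (-0.54 to 0.38) and *Kremen1* (-0.46 to 0.55).

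Markers of mesenchyme, the usual source of *Fgf7*, *Fgf10* and *Igf2*, were also lower in *Jmjd6*-/- stroma. Their sum over 8 genes was 659 FPKM in unstimulated WT and 702 and 639 FPKM in WT with RANKL, against 308 FPKM and then 411 and 396 FPKM in *Jmjd6*-/- stroma. The 3 WT libraries were thus all above the 3 *Jmjd6*-/- libraries. Of the 8 genes, 7 were lower in both *Jmjd6*-/- RANKL libraries than in both WT ones, as were 26.2% of all genes tested. *Col3a1*, *Dcn* and *Col1a2* make up most of the sum. With RANKL, *Dcn* went from 118 to 182 and 160 FPKM in WT and from 48.6 to 144 and 130 FPKM in *Jmjd6*-/- stroma. The collagen genes *Col3a1* and *Col1a2* were called as lower, as were 1.82% of all genes tested, and the list's median log2 difference was -0.78. Endothelial markers were lower too, in 5 of 5 genes under RANKL beside the same 26.2%. Their sum was 11.4 and 15.4 FPKM in WT and 5.17 and 4.40 FPKM in *Jmjd6*-/- stroma. The sum of 4 cortical epithelial markers was 4620 and 5540 FPKM in WT and 5570 and 5610 FPKM in *Jmjd6*-/- stroma under RANKL. The haematopoietic markers summed to 14.5 to 25 FPKM over the 6 libraries, with *Csf1r* at up to 14.8, *Ptprc* at 2.89 to 6.81, *Itgam* at up to 4.29, *Cd4* at 0.332 to 1.45, *Rag1* at up to 0.0686, *Cd3e* at up to 0.0345 and *Cd8a* at up to 0.0198 FPKM. The part of these cell type differences in the values of the members was not tested.

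Set against the mesenchyme marker sum as a description, *Igf2* in unstimulated stroma was at 5.47 FPKM per 100 FPKM of markers for WT, against 5.53 for *Jmjd6*-/-. With RANKL its values of 4.55 and 3.70 in WT stood against 4.22 and 4.00 in *Jmjd6*-/- stroma, so that the genotypes overlapped on this scale. *Fgf10* was at 0.854 and 0.858 per 100 FPKM of markers without RANKL, and under RANKL at 1.54 and 0.69 in WT, against 0.639 and 0.813 in *Jmjd6*-/- stroma. The order seen for *Igf2* and *Fgf10* in FPKM was therefore absent on this scale. It was present on a scale of 100 FPKM of the 8 epithelial markers, a sum made up mostly of *Krt5*, *Krt8* and *Krt18*. There *Igf2* was at 0.433, 0.559 and 0.294 in the WT libraries, with the unstimulated value first, and at 0.201, 0.217 and 0.197 in the *Jmjd6*-/- libraries. *Fgf10* was at 0.0676, 0.189 and 0.0549 in WT on that scale and at 0.0312, 0.0328 and 0.0399 in *Jmjd6*-/- stroma. Per 100 FPKM of mesenchyme markers, *Igf1* had a different order. There it was at 0.902 for WT and 1.5 for *Jmjd6*-/- stroma without RANKL, and at 1.98 and 1.56 against 2.11 and 2.07 under RANKL. *Bmp2* relative to the mesenchyme markers was at 1.12 and 1.56 in WT, against 1.45 and 1.42 in *Jmjd6*-/- stroma under RANKL, and so overlapped. Per 100 FPKM of epithelial markers, *Bmp2* (0.137 and 0.124 against 0.0745 and 0.0696) and *Igf1* (0.243 and 0.124 against 0.108 and 0.102) were lower in both *Jmjd6*-/- RANKL libraries than in both WT ones.

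**Figure D3:**
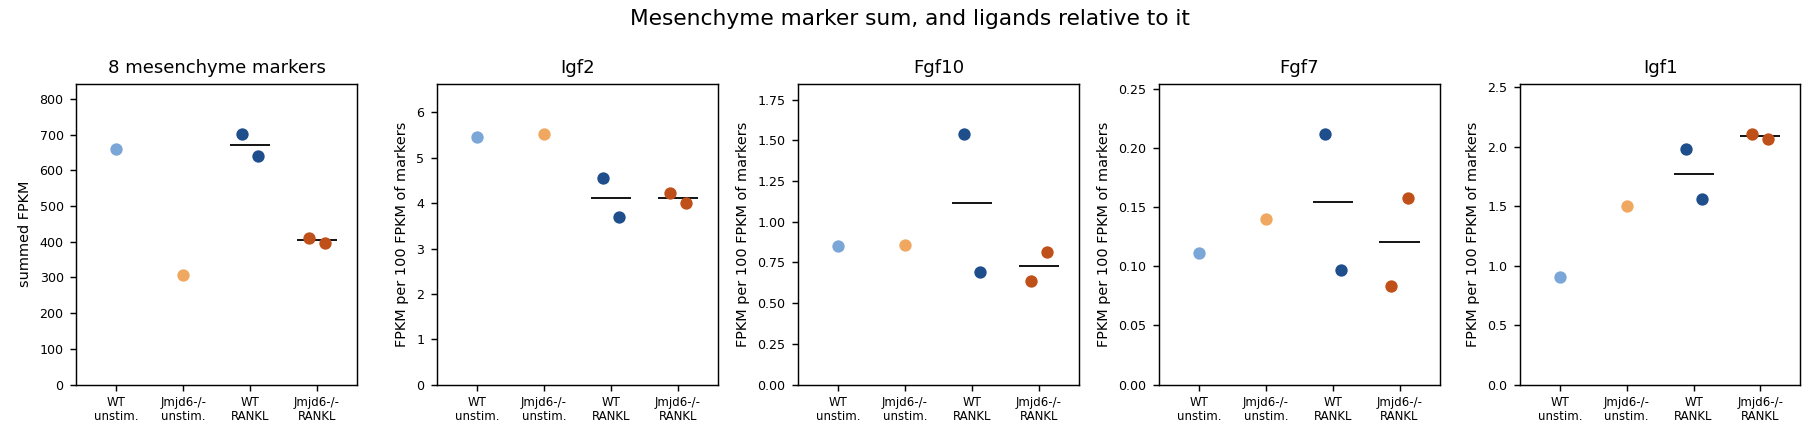
Summed level of 8 mesenchyme markers in FPKM (left) and levels of *Igf2*, *Fgf10*, *Fgf7* and *Igf1* in FPKM per 100 FPKM of that sum, 1 point per library, linear axes from 0, with a line at the mean of each RANKL pair. The marker sum is 639 to 702 FPKM in WT and 308 to 411 FPKM in *Jmjd6*-/- stroma, and *Igf2* relative to it is 3.70 to 5.47 in WT and 4.00 to 5.53 in *Jmjd6*-/- stroma.

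The other genes of the 4 pathways were read from lists that leave out the 10 members. Under RANKL, 5 of 28 tested FGF pathway genes rose and 1 fell, beside the 10.5% and 4.11% of all genes tested. *Fgf21*, an endocrine FGF, rose most in this list, by 4.29 ± 0.10 (SE, log2; adjusted p = 1.50e-05, limma). It went from 4.57 to 92.4 and 93.5 FPKM in WT and from 2.49 to 54.8 and 44.9 FPKM in *Jmjd6*-/- stroma. *Etv4* and *Etv5*, transcription factors that are induced by FGF receptor signalling, rose by 1.89 and 1.02, and *Fgfbp1*, a carrier that releases FGFs from the matrix, rose by 2.23. *Fgf11*, an intracellular FGF homologous factor, fell by 0.53. *Etv4* went from 0.852 to 3.47 and 2.79 FPKM in WT and from 0.18 to 1.08 and 1.00 FPKM in *Jmjd6*-/- stroma. Of the tested feedback inhibitors of the pathway, *Spry4* rose by 0.83 (adjusted p = 0.0388, limma). The others did not pass, with differences of 0.18 (*Spry1*), 0.11 (*Spry2*), 0.19 (*Spred1*), 0.78 (*Spred2*), 0.36 (*Spred3*), 0.46 (*Dusp6*) and -0.30 (*Il17rd*).

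In the BMP list 8 of 34 tested genes rose with RANKL and 1 fell, beside 10.5% and 4.11% of all genes tested. *Grem1*, which encodes a secreted BMP antagonist, rose by 3.6 ± 0.39 (SE, log2; adjusted p = 0.00177, limma), from 0.256 to 2.82 and 1.90 FPKM in WT and from 0.137 to 4.97 and 5.04 FPKM in *Jmjd6*-/- stroma. *Bmper*, which encodes a BMP-binding protein, rose by 1.30, and *Bmp3*, an atypical BMP, by 2.85. *Id3*, a target gene of BMP receptor signalling, went from 32.3 to 55.6 and 61.7 FPKM in WT and from 21.7 to 36.4 and 34.5 FPKM in *Jmjd6*-/- stroma. Of the other *Id* genes, *Id1* rose by 0.85 (adjusted p = 0.0136, limma), while *Id2* (0.46) and *Id4* (-0.14) did not pass. Neither did *Smad7* (0.55), *Msx1* (0.33) or *Smad6* (0.08) of the same list. *Smad4*, the common partner of receptor-activated SMADs, fell by 0.42, from 68.5 and 62.9 FPKM without RANKL to between 47 and 54.4 FPKM with it. The ligand *Bmp2* thus rose together with *Grem1* and *Bmper*, genes for proteins that bind it or its relatives. Not all such genes of the list rose. *Nog* passed too, with a rise of 1.4 at a mean of 0.177 FPKM. By contrast, *Chrdl1* (-0.60), *Twsg1* (-0.39), *Chrd* (-0.36) and *Fst* (0.25) did not pass.

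In the Wnt list 9 of 54 tested genes rose with RANKL and 2 fell, beside 10.5% and 4.11% of all genes tested. *Tcf7*, a transcription factor of the Wnt pathway that is also a T-cell gene, rose by 5.09 ± 0.22 (SE, log2; adjusted p = 5.95e-05, limma), from 0.29 to 9.74 and 10.7 FPKM in WT and from 0.168 to 13.5 and 10.2 FPKM in *Jmjd6*-/- stroma. Of the T-cell markers, *Cd3e* was at 0 in 5 of 6 libraries and *Cd4* was between 0.332 and 1.45 FPKM in all 6. The part of T-cell RNA in the level of *Tcf7* was not tested. *Wnt10b*, a canonical Wnt ligand, rose by 3.82, from 0.0712 to 3.67 and 3.27 FPKM in WT and from 0.0463 to 1.34 and 1.26 FPKM in *Jmjd6*-/- stroma. *Kremen2*, the paralogue of *Kremen1*, rose by 2.45, and *Fzd10*, a Wnt receptor, by 2.05. *Kremen2* stayed below *Kremen1*, at 1.46 to 4.55 FPKM with RANKL. The receptor *Fzd8* and the co-receptor *Lrp6* fell by 0.56 and 0.54.

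In the IGF list 3 of 23 genes rose with RANKL and 4 fell, beside 10.5% and 4.11% of all genes tested, so the rises are near the share in the table. *Igfals*, the acid-labile subunit that holds IGFs in a ternary complex, rose by 5.01 ± 0.26 (SE, log2; adjusted p = 9.11e-05, limma) and *Igfbp5*, an IGF-binding protein, by 1.2. Without RANKL, *Igfals* was listed at 0.0252 FPKM in WT and at 0 in *Jmjd6*-/- stroma, so its fitted difference depends on the added 0.1 FPKM. *Igf1r*, the receptor of the IGF ligands, fell by 0.72 ± 0.13 (SE, log2; adjusted p = 0.0126, limma), from 25.1 to 16.1 and 12.3 FPKM in WT and from 26.8 to 17.5 FPKM in both *Jmjd6*-/- libraries. *Htra1*, a protease that cleaves IGF-binding proteins, fell by 0.71, *Stc1*, an inhibitor of the protease PAPP-A, by 0.62 and *Igfbp3* by 0.52. The call of *Igf1r* was lost in 4 of 16 alternatives, without the filter, without *Jmjd6*-/- RANKL replicate 1 and without either unstimulated library.

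These counts depended on single libraries. Without the unstimulated WT library the genes called with RANKL were 2 instead of 6 in the FGF list, 2 instead of 9 in the BMP, 6 instead of 11 in the Wnt and 2 instead of 7 in the IGF list, while without WT RANKL replicate 2 they were 11, 11, 11 and 10. Without the unstimulated *Jmjd6*-/- library they were 3, 5, 7 and 2, and without either *Jmjd6*-/- RANKL library they were 3 in the FGF, 4 or 6 in the BMP, 8 in the Wnt and 3 or 4 in the IGF list. *Fgf21*, *Grem1*, *Bmp3*, *Tcf7*, *Wnt10b*, *Kremen2*, *Fzd10* and *Igfals* passed under all 16 alternatives run, and *Etv4* under 15 of 16. By contrast, *Etv5* passed in 6, *Fgf11* in 7 and *Lrp6* in 5 of 16.

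**Figure D4:**
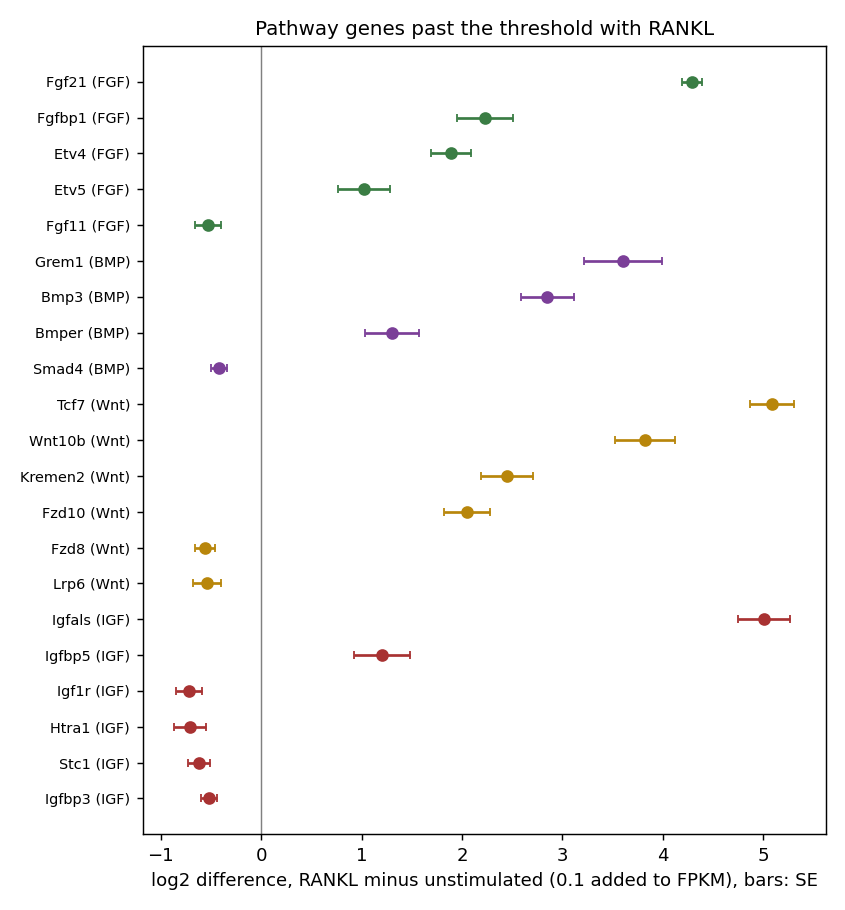
Log2 difference with RANKL, with its SE as bars, for the genes of the FGF, BMP, Wnt and IGF lists that passed an adjusted p of 0.05 by limma and averaged 1 FPKM or more, up to 4 per list and direction, 4 RANKL against 2 unstimulated libraries. *Tcf7* (5.09), *Igfals* (5.01) and *Fgf21* (4.29) lie farthest to the right, and those that fell lie between -0.42 and -0.72.

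Between the genotypes under RANKL, 7 genes of the 4 lists passed, and all were lower in *Jmjd6*-/- stroma, 2 in the FGF, 2 in the BMP, 1 in the Wnt and 2 in the IGF list, beside 1.82% of all genes tested. Of these, 6 averaged 1 FPKM or more. *Chrdl1*, a BMP antagonist, fell by 2.43 ± 0.32 (SE, log2; adjusted p = 0.034, limma), with 2.85 and 1.79 FPKM in WT and 0.398 and 0.285 FPKM in *Jmjd6*-/- stroma. *Igfbp2*, an IGF-binding protein, fell by 1.81 (adjusted p = 0.0433, limma), with 20.1 and 35 FPKM in WT and 7.03 and 7.98 FPKM in *Jmjd6*-/- stroma. *Sfrp2*, a secreted Wnt antagonist, fell by 1.2 (adjusted p = 0.036, limma), with 6.28 and 6.48 FPKM in WT and 2.86 and 2.59 FPKM in *Jmjd6*-/- stroma. *Etv4*, *Fgf21* and *Id3* fell by 1.49, 0.90 and 0.72 (adjusted p = 0.0496, 0.0433 and 0.0475, limma). These p-values are near the threshold. Of the 4 fits that left out 1 RANKL library, *Etv4*, *Fgf21*, *Id3* and *Sfrp2* were called in 1, and *Chrdl1* and *Igfbp2* in 2. Every call of the 4 lists was lost without replicate 2 of the *Jmjd6*-/- RANKL libraries. Among the fits with 1 library left out, that one also gave the fewest calls over all genes tested. The loss was thus not limited to the lists. Without WT RANKL replicate 1, by contrast, 6 genes of the FGF, 13 of the BMP, 17 of the Wnt and 8 of the IGF list passed, beside 25.1% of all genes tested. The list medians of the genotype difference were -0.40 for FGF, -0.22 for BMP, 0.01 for Wnt and -0.23 for IGF, beside 0.01 over all genes tested.

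The genes with the most similar course over the 6 libraries were sought among the 12586 other genes whose mean reached 1 FPKM, by Pearson's r of log2 values. This was *Nrk* for *Igf2* (r = 0.989), *Grap* for *Bmp2* (r = 0.999) and *Cdk1* for *Igf1* (r = 0.997). With 6 libraries such values are common, since 416 genes exceeded 0.95 with *Bmp2*, 253 with *Igf1* and 45 with *Igf2*. Further closest genes were *Slc10a7* for *Fgf7*, *Greb1l* for *Fgfr2*, *Ext2* for *Bmp4*, *Smim4* for *Wnt4*, *Zfp934* for *Wnt5a* and *Slc35e1* for *Kremen1*, with r between 0.984 and 0.997.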

How the data were processed

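From fetal thymus organ cultures, 6 libraries of poly-A RNA were sequenced in paired-end mode (Illumina HiSeq). The authors filtered reads by a filter that is not stated, mapped them to mm10 with TopHat2 2.0.10 and computed FPKM per gene and library with Cufflinks 2.1.1 (multi-read correction, strand setting fr-secondstrand), and these FPKM values, deposited by the authors, were used unscaled. Groups came from the labels, and 0 value columns were left out. With limma 3.58.1 in R 4.3.3, log2(FPKM + 0.1) was fitted for the 15894 genes that averaged 0.1 FPKM or more, the prior variance followed the mean level, and p-values were adjusted over all of them by Benjamini-Hochberg (threshold 0.05). RANKL was tested over 6 libraries in a model that held genotype. The genotypes, and their difference in response, were tested with a mean per condition. The test was checked on simulated data, with changes larger than any genotype difference of a member. The check does not cover differences as small as those. Alternatives were other added constants, filters and scalings, no trend, other model terms, the replicate number as a block, and leaving out each library. The members and the gene lists were chosen with earlier results of these data known. All members are named, as are up to 4 genes per pathway list, direction and comparison with the largest change among those that passed and averaged 1 FPKM or more, *Jmjd6*, *Aire*, markers, genes overlapping a member, and the most similar gene to a member. Of the genes this rule selects, 2 are not reported here. The FGF feedback inhibitors, *Col3a1*, *Col1a2*, *Dcn*, *Prss16* and *Ly75* are named as list members chosen after their values were seen. *Nog*, *Twsg1*, *Chrd*, *Fst*, *Id1*, *Id2*, *Id4*, *Smad6*, *Smad7*, *Msx1* and the single epithelial markers were named in the same way. Depth was estimated from FPKM steps and is approximate. Replicate numbers were not shown to pair the libraries. The replicate 1 minus 2 differences of the genotypes correlated at -0.0778 over 12587 genes, which cannot decide whether cultures were paired.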

Additional observations from a re-analysis of the deposited data

Results flagged for a closer look

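*Wnt4* was the only one of the 10 members whose libraries moved in opposite directions in the 2 genotypes. With RANKL both WT libraries (35.8 and 50.8 FPKM) were below the unstimulated WT library (53.1 FPKM), and both *Jmjd6*-/- libraries (39.8 and 41.2 FPKM) were above the unstimulated one (39.2 FPKM). The difference between the responses was 0.36 ± 0.32 (SE, log2), with a 95% interval from -0.43 to 1.16, and it did not pass (adjusted p = 1, limma). Each direction rests on 1 unstimulated library.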

How the results depend on the processing

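Neither scaling (equal column totals, or median ratios) changed a call among the members. For the RANKL effect, 1675 genes were higher and 654 lower. Without a filter the counts were 788 and 299, without genotype as a term 907 and 208, and the lower genes numbered 398 without the variance trend and 365 with a mean per condition. Of the members, 1 instead of 2 then passed without a filter and 1 without the genotype term. Leaving out single libraries gave 623 (without unstimulated WT) to 2165 (without WT RANKL replicate 2) higher genes, 54 to 1478 lower genes (the same libraries giving the extremes) and 1 to 3 members, 1 without either unstimulated library and 3 without WT RANKL replicate 2. For the genotype difference, 82 genes were higher and 290 lower in *Jmjd6*-/- stroma. The lower genes numbered 180 with 0.01 added and 172 with a filter at 1 FPKM, and without a filter 1 gene was higher and 1 lower. With stimulation as a term over 6 libraries the counts were 326 and 538, with 1 member (*Igf2*). Leaving out single libraries gave 20 to 2254 higher and 68 to 1737 lower genes and 0 to 4 members, with the fewest genes without *Jmjd6*-/- RANKL replicate 2 and the most genes and members without WT RANKL replicate 1. For the difference in response, 93 genes were higher and 83 lower without a filter, against 0 and 0 with it, and 0 to 4 and 0 to 1 when single RANKL libraries were left out. The cause of these shifts was not tested.

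The replicate number as a block, although the numbers were not shown to pair the libraries, gave 396 higher and 1081 lower genes between the genotypes with 2 members (*Fgf10*, -1.22, adjusted p = 0.00419, and *Igf2*, -0.73, adjusted p = 0.00652, limma), and 27 higher and 67 lower genes for the difference in response. It changed no other call of a member.

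Some members that did not pass changed sign when a library was left out. For RANKL the ranges were -0.04 to 0.45 (*Fgf7*), -0.07 to 0.47 (*Fgf10*) and -0.32 to 0.05 (*Wnt4*). For genotype they were -0.39 to 0.02 (*Bmp4*), -0.33 to 0.18 (*Wnt4*) and -0.19 to 0.52 (*Wnt5a*). For the difference in response they were -0.85 to 0.29 (*Fgf7*), -0.79 to 0.48 (*Fgf10*), -0.08 to 0.34 (*Bmp4*), -0.36 to 0.11 (*Igf1*) and -0.0048 to 0.1 (*Kremen1*), and that of *Bmp2* was -0.13 with 1 added to FPKM. *Wnt4* is thus the one member whose genotype difference passed without WT RANKL replicate 1 and had the opposite sign without replicate 2. Depth limits *Fgf7*, *Bmp4* and unstimulated *Bmp2*, and 1 unstimulated library per genotype limits each statement on the response to RANKL.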
